A study of Mus musculus with 899 samples.

Results

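Month 1 plasma of irradiated C3H mice was compared by whether the same mouse was also sequenced at month 4. The members are 30 of the 899 samples of the series, 1 for each irradiated mouse of the followed C3H cohort (G2) that has a month 1 sample: 17 mice with a month 4 sample and 13 mice with none. All were C3Hf/Sed/Kam mice of both sexes that had received a single dose of radiation to the whole thorax as young adults, and the 16 sham mice of the same cohort, handled alike without radiation, served as the reference. The cohort holds 32 irradiated mice, of which 2 have no month 1 sample and are left out. Plasma was taken before irradiation, at day 2 in one arm and day 5 in the other, and then monthly, and small RNA of each sample was sequenced. All 16 sham mice have a month 4 sample. The last sample of the 13 mice was from month 3 for 10 mice, from month 2 for 1 and from month 1 for 2. The sources used here do not tie a missing sample to a reason. Plasma with hemolysis, poor libraries and runs with few miRNA reads were left out by the authors, who also applied criteria for early euthanasia. A missing late sample is therefore not the same as death.

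**Figure D1:**
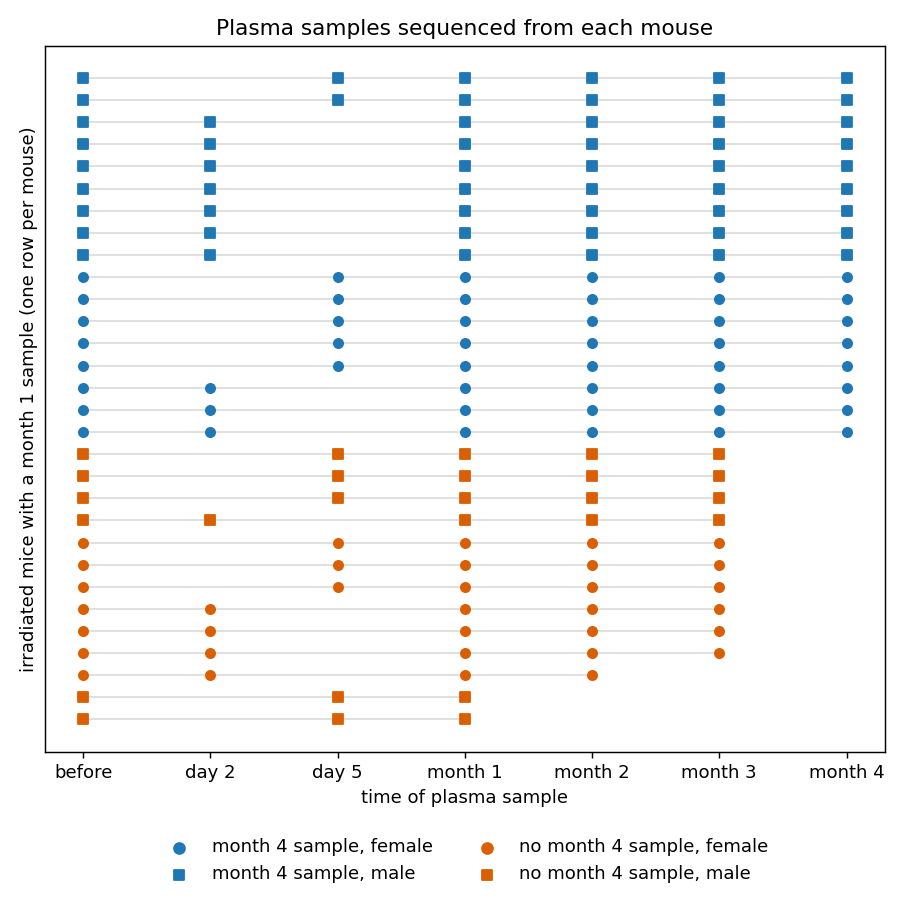
Plasma samples of the 30 irradiated mice, with 1 row per mouse, the time of sampling on the x axis, squares for males and circles for females. The 17 blue rows reach month 4, and of the 13 orange rows 10 end at month 3, 1 at month 2 and 2 at month 1.

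miRNA are short RNAs that bind messenger RNAs through their seed, bases 2 to 8 from the 5′ end, and lower the amount of protein made. Plasma carries miRNA that blood cells, endothelium, liver and other tissues release in vesicles or bound to proteins, and a plasma level cannot tell fewer releasing cells from less release per cell. Whole-thorax irradiation exposes lung, heart and the blood passing through the field, and C3H mice are known for a late pneumonitis after it.

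The mature sequences of the miRNA on which the results turn are given with the seed in capitals, from RefSeq on GRCm38.p6. The first set had the lowest unadjusted p among miRNA with a lower fitted level in mice without a month 4 sample, and miR-100-5p had the lowest p among 9 miRNA that the study linked to survival.
miR-3058-5p: uCAGCCACggcuuaccuggaaga
miR-497a-5p: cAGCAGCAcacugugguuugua
miR-195a-5p: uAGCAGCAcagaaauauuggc
miR-125b-5p: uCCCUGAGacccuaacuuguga
miR-22-5p: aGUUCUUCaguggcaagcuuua
miR-100-5p: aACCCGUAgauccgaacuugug

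The second set leads the miRNA with a higher fitted level in those mice.
miR-142a-3p: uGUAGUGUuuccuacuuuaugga
miR-450b-3p: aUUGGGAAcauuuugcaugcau
miR-223-3p: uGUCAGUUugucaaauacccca
let-7a-5p: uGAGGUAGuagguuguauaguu
let-7f-5p: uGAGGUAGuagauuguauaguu

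The third set passed the test against sham mice.
miR-18b-5p: uAAGGUGCaucuagugcuguuag
miR-20b-5p: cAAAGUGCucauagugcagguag
miR-106a-5p: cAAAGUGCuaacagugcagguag
miR-363-3p: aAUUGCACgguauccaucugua
miR-34c-3p: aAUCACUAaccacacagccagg
miR-200c-3p: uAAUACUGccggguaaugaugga

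miR-497a-5p and miR-195a-5p share the seed AGCAGCA with miR-16-5p, the most abundant miRNA of all 46 libraries, and their genes lie within 353 bases of each other on chromosome 11, at chr11:70234730-70234751 and chr11:70235062-70235082, with no host gene annotated on that strand. miR-20b-5p and miR-106a-5p share AAAGUGC. The genes of miR-106a-5p (chrX:52742541-52742563), miR-18b-5p, miR-20b-5p and miR-363-3p (chrX:52741697-52741718) span 867 bases of the X chromosome, outside annotated host genes on their strand. Some of these miRNA have near-identical copies elsewhere, and reads of one may have been counted for the other. miR-106a-5p differs from miR-17-5p at 1 of 23 positions, miR-18b-5p from miR-18a-5p and miR-20b-5p from miR-20a-5p at 2 positions each, and let-7a-5p from let-7f-5p at 1 of 22 positions, so their levels are uncertain to that extent.

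The libraries held 629827 to 6992333 miRNA reads with a median of 1339810. Depth differed with follow-up: the total ranged from 629827 to 1898445 reads (median 1119360) in the mice without a month 4 sample and from 791912 to 2662510 (median 1410860) in the mice with one (two-sided permutation test over the 30 samples, p = 0.0156, adjusted p over 6 library measures = 0.0468). The number of miRNA detected was also smaller, with a median of 446 against 485 (adjusted p = 0.00804, permutation test). After thinning every library to the smallest total, the medians were 415 and 424 and the difference of the means no longer passed the test (adjusted p = 0.311, permutation test). Red blood cell miRNA took a median of 58.8% of reads in the mice without and 59.0% in the mice with a month 4 sample (adjusted p = 0.658, permutation test). Sex and the early bleed were uneven: of 8 irradiated males bled at day 2, 7 have a month 4 sample, and of 7 males bled at day 5, 2 have one. Among females the numbers were 3 of 7 and 5 of 8. The males bled at day 2 with a month 4 sample held 1326126 to 2662510 reads, and sham males bled at day 2 held 1677546 to 6992333. The other 10 mice with a month 4 sample held 791912 to 2069778. Whether depth differed with follow-up apart from this imbalance was not tested. Fisher's exact test on the 30 mice gave p = 1 for sex, p = 0.462 for the early bleed and p = 0.0924 for males bled at day 2 against all others (two-sided).

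The main question was whether plasma miRNA at month 1 differed between mice that were and were not sampled at month 4. No miRNA passed the test. Of 276 miRNA with enough reads, the quasi-likelihood test of edgeR, adjusted by Benjamini-Hochberg, called 0 (0% of those tested), and the smallest adjusted p was 0.494. At an unadjusted p under 0.05 there were 23 (8.33%), of which 21 (7.61%) were lower and 2 (0.725%) higher in the mice without a month 4 sample. DESeq2 and limma-voom also called 0, with 26 and 21 at that unadjusted level. The median log2 fold change of all 276 was -0.057, and 160 (58%) were below 0. The 95% confidence interval lay within a log2 fold change of 1 in either direction for 226 of the 276 miRNA, with a median half-width of 0.45, and reached beyond it for the other 50, for which changes of that size could not be set aside at this number of mice.

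**Figure D2:**
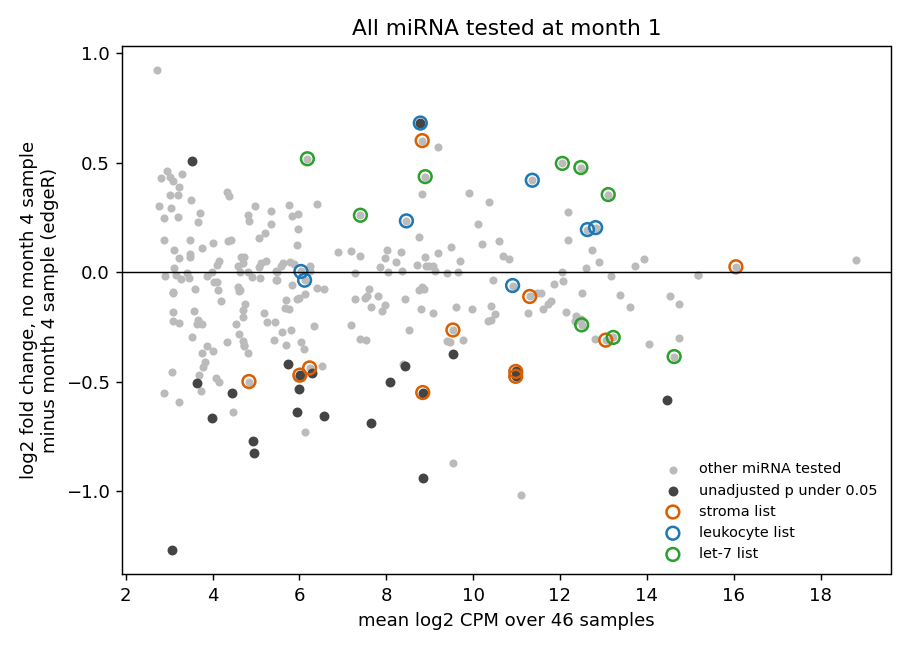
Log2 fold change at month 1, mice without minus mice with a month 4 sample (y axis), against mean log2 CPM over 46 samples (x axis), with 1 point per miRNA. The 23 dark points have an unadjusted p under 0.05, 21 of them below 0, and rings mark the stroma, leukocyte and let-7 lists.

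The 12 miRNA described next are those with the smallest unadjusted p in each direction among miRNA of mean log2 CPM of at least 3, so their direction and p were used to choose them and none passed the adjusted test. Levels are log2 CPM, read counts scaled to library size with TMM factors. miR-3058-5p, encoded in an intron of Nudt4 at chr10:95559286-95559308, ranged from 0.30 to 3.35 (median 1.61) in the mice without a month 4 sample, from 1.08 to 4.11 (median 3.20) in the mice with one and from 1.03 to 4.28 (median 3.08) in sham mice. The groups overlapped, but 11 of the 13 mice without a month 4 sample lay below the median of the other irradiated mice. Its log2 fold change was -1.27 (SE 0.41, 95% interval -2.09 to -0.45, unadjusted p = 0.0031, edgeR). This is a scarce miRNA, with a median of 2 reads and 3 libraries at 0 in the mice without a month 4 sample and a median of 9 reads in the mice with one, and the shallower libraries belong to the former.

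miR-497a-5p and miR-195a-5p belong to the miR-15/16 family, which restrains cell cycle genes. miR-497a-5p ranged from 1.47 to 5.05 (median 4.40) in mice without a month 4 sample, from 3.94 to 6.07 (median 4.90) in mice with one and from 4.08 to 5.65 (median 4.90) in sham mice, and its log2 fold change was -0.77 (SE 0.27, interval -1.31 to -0.23). The groups overlapped except for 3 mice without a month 4 sample that lay below all others, as the plot of month 1 levels shows. miR-195a-5p ranged from 7.13 to 8.22 (median 7.66), from 6.57 to 9.18 (median 8.13) and from 7.24 to 8.83 (median 8.11) in the same order, with a log2 fold change of -0.50 (SE 0.19). Here the 2 lowest mice were ones with a month 4 sample, so the ranges were nested. miR-16-5p, which shares their seed, had a log2 fold change of 0.057 (interval -0.32 to 0.43).

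miR-125b-5p, an abundant miRNA linked to cell differentiation, has 2 genes, on chromosomes 9 and 16. It ranged from 13.43 to 14.86 (median 13.95) without and from 13.07 to 15.31 (median 14.65) with a month 4 sample, against 13.37 to 15.42 (median 14.72) in sham mice. The log2 fold change was -0.58 (SE 0.21, interval -0.997 to -0.16), and 12 of 13 mice without a month 4 sample were below the median of the others. miR-22-5p, the less abundant arm of the miR-22 hairpin, ranged from 4.97 to 6.12 (median 5.25) and from 5.35 to 6.64 (median 5.74), with 5.02 to 6.44 (median 5.66) in sham mice, and had a log2 fold change of -0.42 (SE 0.16). All 17 mice with a month 4 sample were above the median of the 13, and 10 of the 13 were below the median of the 17. miR-676-5p had a log2 fold change of -0.67 (SE 0.25), with 11 of 13 mice below the median of the other group.

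**Figure D3:**
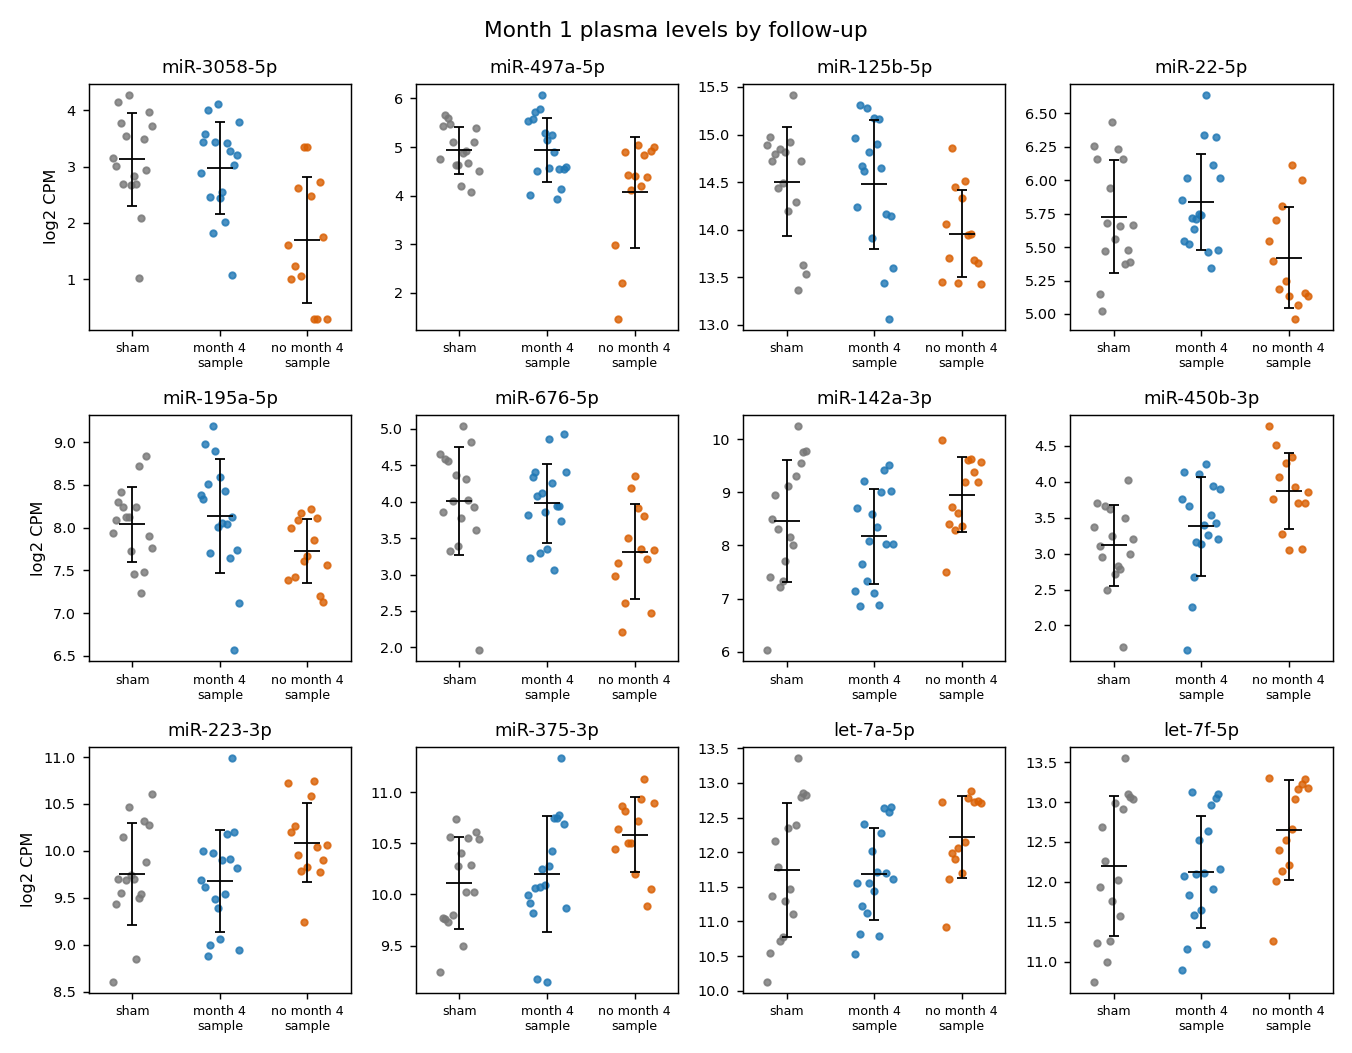
Month 1 log2 CPM (y axis) of 12 miRNA, the 6 of smallest unadjusted p in each direction with mean log2 CPM of at least 3. Points are 16 sham mice (grey), 17 irradiated mice with (blue) and 13 without a month 4 sample (orange). There is 1 point per mouse, with mean and SD in black. The groups overlap in each panel, and 11 of 13 orange points for miR-3058-5p lie below the blue median.

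Among the miRNA with higher fitted levels, miR-142a-3p and miR-223-3p mark blood leukocytes and myeloid cells. miR-142a-3p, from chr11:87756903-87756925 in an intron of the non-coding host Mir142hg, ranged from 7.50 to 9.98 (median 9.19) in mice without a month 4 sample, from 6.86 to 9.51 (median 8.08) in mice with one and from 6.03 to 10.24 (median 8.41) in sham mice. All but 1 of the 13 exceeded the median of the 17, but the sham mice covered the whole range. Its log2 fold change was 0.68 (SE 0.32, interval 0.039 to 1.33, unadjusted p = 0.0382, edgeR). miR-223-3p ranged from 9.25 to 10.74 (median 10.04) and from 8.88 to 10.99 (median 9.69), with a log2 fold change of 0.36 (SE 0.19, interval -0.013 to 0.74).

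miR-450b-3p, from an X-linked miRNA cluster, ranged from 3.05 to 4.77 (median 3.86) without and from 1.66 to 4.25 (median 3.43) with a month 4 sample, a log2 fold change of 0.51 (SE 0.24). miR-375-3p, a miRNA of pancreatic islets and neuroendocrine cells, had a log2 fold change of 0.32 (SE 0.17, interval -0.023 to 0.67), and 5 of the 13 mice without and 4 of the 17 with a month 4 sample exceeded the highest sham value. let-7a-5p and let-7f-5p, of a family linked to differentiation, had log2 fold changes of 0.50 (SE 0.27) and 0.48 (SE 0.26), both with intervals that include 0, and for each 11 of 13 mice were above the median of the other irradiated mice.

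The survival list came from the study's models of both mouse strains, and several of its miRNA were singled out in the other strain, C57Bl/6, rather than in C3H mice. Plasma of C3H mice entered that choice too, so the list is no independent evidence of direction. The study related these miRNA to survival by their levels at day 2 and day 5, whereas month 1 levels are compared here by follow-up. It also fitted survival models to month 1 levels, which were not repeated here. All 9 were measured and none passed the test at month 1 between the irradiated groups. Fitted levels were lower for 6 and higher for 3 in the mice without a month 4 sample, with a median log2 fold change of -0.15 beside -0.057 for all miRNA. miR-100-5p, from the intron of a non-coding host on chromosome 9 (chr9:41531437-41531458), ranged from 1.76 to 4.97 (median 4.14) without and from 2.48 to 6.22 (median 4.97) with a month 4 sample, and from 2.39 to 7.35 (median 4.79) in sham mice. All 13 mice lay below the median of the 17, and the log2 fold change was -0.83 (SE 0.37, interval -1.56 to -0.091, unadjusted p = 0.0285, adjusted p = 0.54, edgeR). It differs from miR-99a-5p at 1 of 22 positions, and that miRNA had a log2 fold change of -0.66 (interval -1.27 to -0.049).

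The mesenchymal miRNA miR-199a-5p and miR-199b-5p had log2 fold changes of -0.44 (interval -0.96 to 0.088) and -0.50 (interval -1.21 to 0.21). miR-34a-5p and miR-34b-3p, which p53 induces, had -0.15 (interval -0.60 to 0.30) and 0.16 (interval -0.27 to 0.59). The hepatocyte miRNA miR-122-5p and miR-802-5p had -0.055 (interval -0.62 to 0.51) and 0.054 (interval -0.56 to 0.67), and the lymphocyte miRNA miR-150-5p had 0.20 (interval -0.16 to 0.57). miR-96-5p was the least certain at -0.64 (interval -1.73 to 0.45). For miR-34a-5p, miR-34b-3p, miR-122-5p, miR-150-5p, miR-199a-5p and miR-802-5p, a difference of more than 1 on the log2 scale in either direction lies outside the interval.

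Lists of miRNA typical of a tissue or cell type were read by counts and medians, and no member of any list was called between the irradiated groups. Of 11 stromal and fibrosis miRNA, 9 had a lower fitted level in the mice without a month 4 sample (58% of all 276 miRNA did), and the list's median log2 fold change was -0.44 against -0.057. Its lower members include miR-145a-5p at -0.55, miR-214-3p at -0.47 and miR-199a-3p at -0.45, which has the same sequence as miR-199b-3p (-0.47), while miR-29b-3p was at 0.60. All 7 measured epithelial miRNA were below 0 with a median of -0.17, led by miR-200c-3p at -0.94 (interval -1.83 to -0.048), and all 4 measured muscle miRNA were below 0 with a median of -0.59. miR-1a-3p, the main muscle miRNA, was at -1.02 with an unadjusted p of 0.101 in edgeR. Against sham mice, the muscle list had a median of 0.60 in mice with and 0.013 in mice without a month 4 sample. The epithelial list had -0.18 and -0.39 in the same order.

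Of 8 leukocyte miRNA 6 had a higher fitted level (median 0.20), as did both arms of miR-223 and 6 of 9 let-7 members (median 0.36). let-7b-5p, let-7c-5p and let-7g-5p were on the other side at -0.30, -0.38 and -0.24. The 8 red blood cell miRNA had a median of -0.011, and the endothelial miR-126a-5p and miR-126a-3p were at 0.030 and 0.061. Liver (5 measured), pancreas (2), brain (2) and p53-linked miRNA (4) had medians of 0.054, 0.076, -0.079 and -0.071, and the clusters of miR-106a to miR-363 and of miR-17 to miR-92a had -0.0013 and -0.078. These cluster lists share miR-19b-3p and miR-92a-3p. As a share of reads, the stromal list took 5.26% to 13.1% in mice without and 5.56% to 12.03% in mice with a month 4 sample, and the leukocyte list 1.24% to 3.62% and 1.04% to 2.43%, so that the groups overlapped in both.

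Each irradiated group was next set against the 16 sham mice, which both comparisons share. Of the 6 miRNA of the miR-106a to miR-363 cluster of the X chromosome, a relative of the growth-promoting miR-17 to miR-92a cluster, 3 were called higher in mice with and 4 in mice without a month 4 sample. The others did not pass, with miR-19b-3p at 0.0022 and -0.16 and miR-92a-3p at 0.22 and 0.18. Both of these also belong to the miR-17 to miR-92a list, so their reads cannot be assigned to the X-linked cluster. In mice with a month 4 sample 4 miRNA were called (1.45% of 276), all higher than in sham mice, and 48.2% of all miRNA were below 0: miR-18b-5p, miR-20b-5p, miR-106a-5p and miR-34c-3p. In mice without one 7 were called (2.54%), with 54.3% of all miRNA below 0: the same 4 and miR-363-3p higher (1.81%), and miR-3058-5p and miR-200c-3p lower (0.725%). The number at an unadjusted p under 0.05 was 16 (5.8%) in the former, 12 of them higher (4.35%), and 46 (16.7%) in the latter, 16 higher (5.8%) and 30 lower (10.9%).

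miR-18b-5p ranged from 2.93 to 5.56 (median 4.20) in sham mice, from 4.57 to 6.50 (median 5.5) in mice with and from 5.15 to 6.48 (median 5.86) in mice without a month 4 sample. Every irradiated mouse was above the sham median, and 8 of 17 and 8 of 13 exceeded the highest sham mouse. The log2 fold changes were 1.36 (SE 0.21, adjusted p = 7.0e-06) and 1.58 (SE 0.22, adjusted p = 6.7e-07, edgeR), and the difference between them was 0.22 (interval -0.20 to 0.64). miR-20b-5p rose by 0.96 (SE 0.17, adjusted p = 0.000125) and 0.99 (SE 0.18, adjusted p = 0.000209) on the log2 scale, from a sham range of 4.66 to 6.72 to 5.13 to 7.20 and 6.04 to 6.91. miR-106a-5p rose by 1.03 (SE 0.22, adjusted p = 0.00236) and 0.99 (SE 0.23, adjusted p = 0.00917), and the irradiated groups differed by -0.034 (interval -0.49 to 0.43).

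The remaining calls stood close to the threshold. miR-34c-3p, of the p53-induced miR-34 family, was higher by 0.61 in both groups (SE 0.17 and 0.18, adjusted p = 0.0434 and 0.0496, edgeR), with 7 of 17 and 6 of 13 mice above the highest sham mouse. The other arm of its hairpin, miR-34c-5p, was at 0.20 in mice with and -0.064 in mice without a month 4 sample, and neither passed. miR-363-3p was higher by 1.19 (SE 0.33, adjusted p = 0.0475) in mice without a month 4 sample, at 0.80 (SE 0.31, adjusted p = 0.358) in mice with one, and the 2 groups differed by 0.39 (interval -0.24 to 1.02), which does not set them apart. miR-3058-5p fell by 1.45 on the log2 scale (SE 0.41, adjusted p = 0.0475) and miR-200c-3p, which holds cells in an epithelial state, fell by 1.56 (SE 0.46, adjusted p = 0.0496) in mice without a month 4 sample. In mice with one they were at -0.18 (interval -0.86 to 0.49) and -0.63 (interval -1.45 to 0.20). miR-200c-3p ranged from 6.12 to 8.67 (median 7.74) in mice without a month 4 sample and from 6.39 to 11.65 (median 8.32) in sham mice. Without sham mouse 2001 its log2 fold change in mice without a month 4 sample was -1.14.

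Which of these miRNA passed varied with single libraries and with the settings. With 1 library left out at a time, miR-18b-5p, miR-20b-5p and miR-106a-5p passed in all 46 fits of either comparison, but for mice without a month 4 sample miR-363-3p passed in 29 of 46 fits, miR-3058-5p in 25, miR-200c-3p in 19 and miR-34c-3p in 16, and for mice with one miR-34c-3p in 24. With log2 total count as a covariate, the 7 calls became 2, miR-18b-5p and miR-20b-5p. The log2 fold changes of miR-363-3p and miR-34c-3p were then 1.20 and 0.60, close to those without the covariate, that of miR-106a-5p was 0.85, and those of miR-3058-5p and miR-200c-3p were -1.20 and -1.01 (adjusted p = 0.0775 to 0.346, edgeR). The part of depth in these calls was not tested. With the mouse as a block, as the change from the same mouse's sample before irradiation, neither comparison had a call, and miR-18b-5p had 1.28 (adjusted p = 0.0661) and 0.94 (adjusted p = 0.291, limma-voom). Samples of a mouse hardly correlated (mean 0.035), so a change carries the spread of both samples. The block therefore has less power, and its lack of calls does not decide whether the calls hold.

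**Figure D4:**
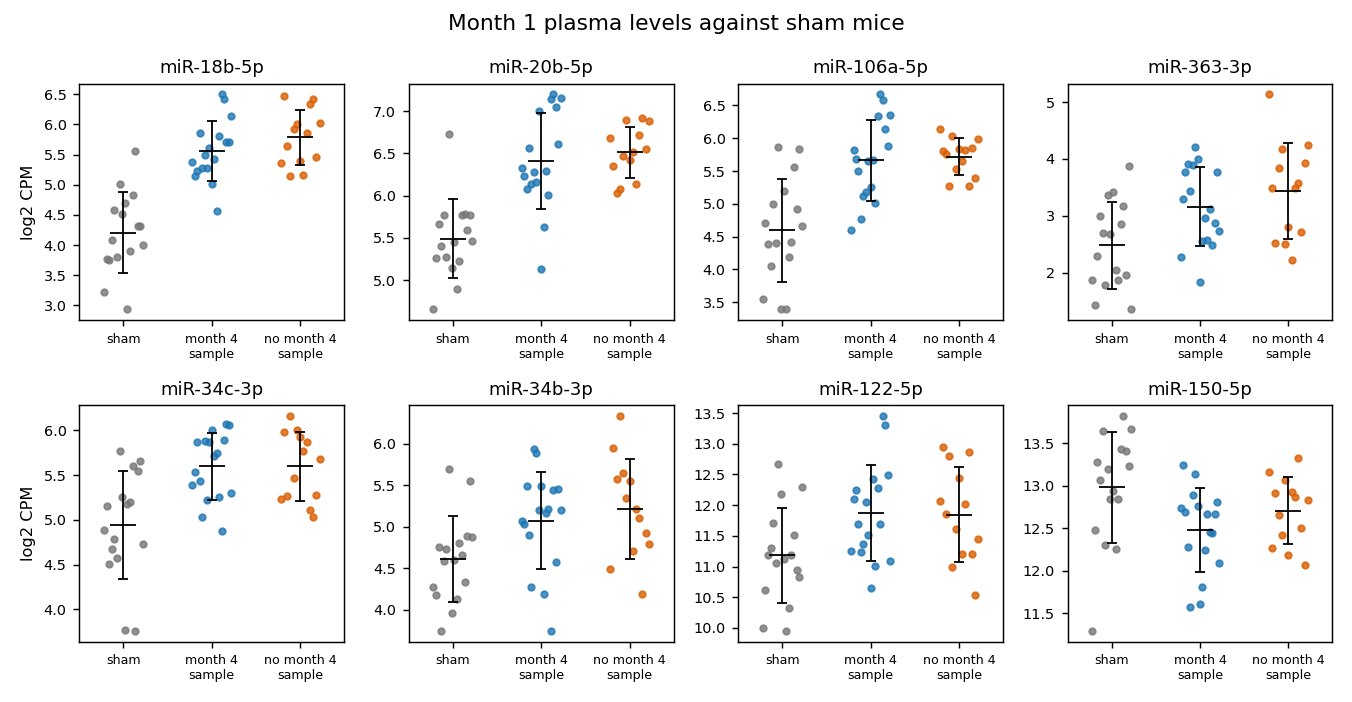
Month 1 log2 CPM (y axis) of 8 miRNA, chosen from those called against sham mice, the second cohort's list and the miR-34 family, for 16 sham mice (grey), 17 irradiated mice with (blue) and 13 without a month 4 sample (orange), with mean and SD in black. For miR-18b-5p, 8 of 17 and 8 of 13 irradiated mice lie above all sham mice.

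A second C3H cohort (G4), whose mice are in none of these groups, gave an independent list. Among 292 miRNA tested at month 1 between its 28 irradiated and 16 sham mice, edgeR called 5 (1.71%): miR-18b-5p, miR-106a-5p, miR-20b-5p and miR-122-5p higher and miR-150-5p lower. In the followed cohort all 5 had the same direction against sham mice in both follow-up groups. Both comparisons use the same sham mice, and the share of all miRNA with the same direction in both cohorts is not given here. miR-122-5p, the main hepatocyte miRNA, was at 1.74 (SE 0.28) in the second cohort and at 0.70 and 0.65 in the mice with and without a month 4 sample (adjusted p = 0.333 and 0.201, edgeR). miR-150-5p was at -0.71 (SE 0.19) in the second cohort and at -0.55 and -0.34 here (adjusted p = 0.159 and 0.323, edgeR). Between the follow-up groups the 5 miRNA differed by -0.055 to 0.22, and each interval included 0.

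The same mice were compared at the other times, in separate fits. No miRNA was called before irradiation (0 of 251), at day 2 (0 of 298), at day 5 (0 of 270), at month 2 (0 of 269) or at month 3 (0 of 281), where 34 (13.5%), 20 (6.71%), 10 (3.7%), 6 (2.23%) and 17 (6.05%) had an unadjusted p under 0.05 in edgeR. The share of all miRNA below 0 was 53.8%, 56%, 47.4%, 46.1% and 57.7% in the same order. limma-voom gave 0 calls at each time too, with 37, 19, 10, 6 and 17 at that level. At day 2 and day 5 the groups were small, with 5 against 10 and 8 against 7 mice.

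Before irradiation, 10 of the 12 miRNA described above could be tested, and all 10 were on the same side as at month 1: the 5 lower ones between -0.49 and -0.11 and the 5 higher ones between 0.24 and 0.43. The later times varied: of the 6 lower ones 4 were below 0 at day 2, 3 at day 5, 2 of 5 at month 2 and all 6 at month 3, and of the 6 higher ones 2 were above 0 at day 2, 4 at day 5, 3 at month 2 and 3 at month 3. miR-142a-3p was at 0.43 (interval 0.013 to 0.85) and miR-375-3p at 0.30 (interval 0.0034 to 0.60) before any radiation was given. miR-18b-5p, called against sham mice at month 1, was also at 0.62 (interval 0.15 to 1.09, adjusted p = 0.225, edgeR) between the follow-up groups before irradiation. Of the 23 miRNA with an unadjusted p under 0.05 at month 1, 21 could be tested before irradiation and 18 had the same direction, beside 164 of all 237 miRNA tested at both times (69.2%), and 3 had an unadjusted p under 0.05 there as well. The same direction was held by 17 of 23 at day 2, beside 147 of 271 (54.2%), by 11 of 23 at day 5, beside 133 of 263 (50.6%), by 10 of 22 at month 2, beside 120 of 263 (45.6%), and by 20 of 23 at month 3, beside 165 of 266 (62%), and 1, 0, 0 and 1 of them had an unadjusted p under 0.05 there. These counts come from the same mice in other samples, and miRNA are not independent of each other.

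miR-100-5p was at -0.68 before irradiation (interval -1.45 to 0.09), -0.72 at day 2 (interval -1.56 to 0.11), 0.46 at day 5, 0.087 at month 2 and -1.19 at month 3 (interval -2.21 to -0.17), so its values lay on the month 1 side at 3 of these 5 times. miR-3058-5p, with the largest difference at month 1, was at -0.083 at day 2, -0.25 at day 5 and -0.063 at month 3, each with an interval that includes 0 (at month 3 the mean log2 CPM was 2.48 without and 2.01 with a month 4 sample), and was too scarce to be tested before irradiation and at month 2. miR-195a-5p was at -0.11 before irradiation, 0.00098 at day 2, 0.091 at day 5, 0.011 at month 2 and -0.39 at month 3 (interval -0.78 to 0.0007).

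**Figure D5:**
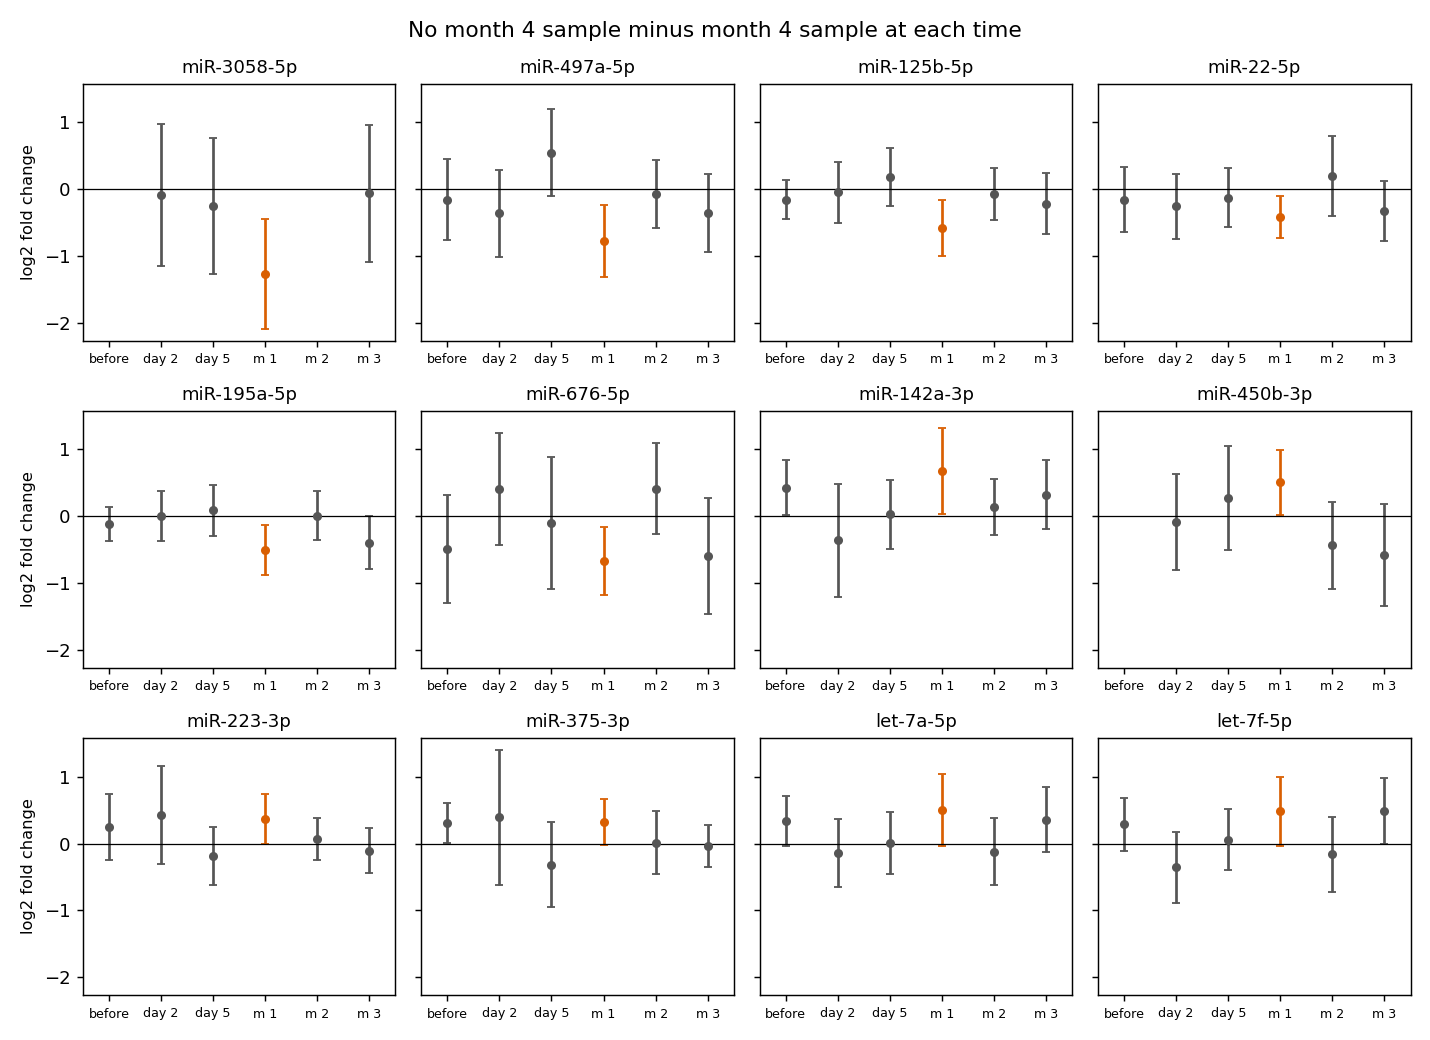
Log2 fold change with 95% confidence interval (y axis), mice without minus mice with a month 4 sample, at each time of sampling (x axis, m for month). The 12 miRNA are the 6 of smallest unadjusted p in each direction at month 1 (month 1 in orange). Before irradiation all 10 miRNA that could be tested lie on the month 1 side of 0.

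As the change of each mouse from its own sample before irradiation, the follow-up groups differed in no miRNA at an adjusted p under 0.05 (0 of 276, smallest adjusted p = 0.974, limma-voom with mouse as a block), and 4 had an unadjusted p under 0.05. With a mean correlation of 0.035 between samples of a mouse, this change is more variable than a single level, and the test has less power.

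Within sex and early bleed, mice without a month 4 sample had a lower mean miR-3058-5p in all 4 combinations, by differences of -1.48 to -1.06, and lower miR-125b-5p, miR-22-5p, miR-195a-5p, miR-676-5p, miR-100-5p and miR-199a-5p likewise, which held for 35 of 276 miRNA (12.7%). miR-142a-3p and miR-363-3p were higher in all 4, as were 20 of 276 (7.25%). One of these combinations, the males bled at day 2, has a single mouse without a month 4 sample. Without these males, 8 of 276 miRNA had an unadjusted p under 0.05 in edgeR, against 23 with them. For some of these miRNA the fitted value was of unlike size by early bleed, though no such difference passed. In mice bled at day 2 and at day 5, miR-125b-5p was at -0.81 and -0.081, miR-142a-3p at 1.30 and 0.099. In the same order miR-100-5p was at -1.19 and -0.17. miR-3058-5p was at -1.19 and -1.35 and miR-22-5p at -0.47 and -0.38, while miR-676-5p was at -0.32 and -0.96. A test of the difference between the sexes called 0 of 276 miRNA in edgeR (17, or 6.16%, at an unadjusted p under 0.05), and between the early bleeds also 0 (19, or 6.88%).

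In a fit of all 46 samples by group and sex, without the early bleed, the contrast among the 15 irradiated males called 1 of 276 miRNA. The contrast among females called 0, as did those among mice bled at day 2 and at day 5. miR-497a-5p ranged from 1.47 to 4.90 (median 3.55) in the 6 males without and from 4.01 to 6.07 (median 5.54) in the 9 males with a month 4 sample, against 4.62 to 5.65 (median 5.26) in 8 sham males, and the log2 fold change was -1.69 (adjusted p = 0.0059, edgeR). In females it was 0.12 (adjusted p = 0.928), with ranges of 4.19 to 5.05 and 3.94 to 5.24. The difference between the sexes was 1.80 (SE 0.48) and did not pass (adjusted p = 0.145, edgeR). Males without a month 4 sample were mostly bled at day 5 and males with one mostly at day 2, and the mean log2 CPM differed by -2.33 among males bled at day 2 (1 against 7 mice) and by -1.79 among those bled at day 5 (5 against 2 mice).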

How the data were processed

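Plasma small RNA libraries of the followed C3H cohort were used. The authors trimmed reads and aligned them to mouse miRNA (mm10, per the labels) with BaseSpace, and deposited raw counts of reads per mature miRNA. Whether molecular identifiers were used is not given in the sources used here, so counting intervals would cover counting error only. Groups were taken from the sample titles. The members and the miRNA lists were chosen with earlier results of these data known.

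Counts of 46 month 1 samples were filtered by treatment (filterByExpr, minimum count 10), which kept 276 of 1915 miRNA with 99.9% of reads, scaled by TMM and fitted without covariates by edgeR 4.0.16 in R 4.3.3 (43 residual degrees of freedom). The threshold was an adjusted p of 0.05 (Benjamini-Hochberg), and levels are log2 CPM with a prior count of 2. Other tools were limma 3.58.1, DESeq2 1.42.0 and SciPy 1.17.1 (100000 resamples). The fit was also run on simulated data, whose outcome is not given here and is not used as support. Fitting with limma-voom on quantile-normalized values, as the study describes, was an alternative with limma alone. The named miRNA were the called ones, or otherwise the 6 of smallest p per direction with mean log2 CPM of at least 3, the survival list, up to 8 calls per direction against sham, and list members. miR-16-5p and miR-99a-5p were named beside their relatives after their values were seen. Samples before irradiation and at month 1 are paired by the mouse number of the labels: deviations from group means had a mean correlation of 0.035 within a mouse and 0.00016 between mice over 46 pairs and 179 miRNA, and 19 of the 46 pairs exceeded 0.1. The p-values of fits at a single time rest on the spread between mice, and those with the mouse as a block on the spread of the changes. Those of Fisher's exact test rest on counts of mice. Sequences were matched by name for 22 of 27 named miRNA and hosts taken from GENCODE vM21.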

Additional observations from a re-analysis of the deposited data

Results flagged for a closer look

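Month 1 levels of the 12 miRNA, the 6 of smallest unadjusted p in each direction, were searched for a mouse standing apart. The search was within sex, early bleed and follow-up group, in 48 sets of 4 to 7 mice. In 3 sets a mouse stood apart by Dixon's 95% limit, which chance alone exceeds in about 1 in 20 sets. miR-3058-5p was at 1.08 log2 CPM in 1 of 5 females bled at day 5 with a month 4 sample, where the next was at 3.03. miR-22-5p was at 6.12 in 1 of 4 females bled at day 2 without a month 4 sample, where the next was at 5.14. miR-375-3p was at 9.17 in 1 of 7 males bled at day 2 with a month 4 sample, where the next was at 9.82.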

How the results depend on the processing

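Between the follow-up groups 0 miRNA were called under each of 16 alternative settings and in each of 46 fits without 1 library (lowest 0, highest 0), with 4 to 31 at an unadjusted p under 0.05 in the settings with 179 to 483 miRNA and 113 of 1029 without a filter. Against sham mice, the 4 calls in mice with a month 4 sample became 3 to 4 when 1 library was left out and 0 under the replicate block of the mouse. The 7 calls in mice without one became 13 with DESeq2, 24 with no filter, 4 with only the more abundant miRNA, 3 with a sex covariate, 4 with a block of sex by early bleed, 3 with only the 2 groups compared, 4 with only the 10 mice that have a month 3 sample, 2 with log2 total count as a covariate, 3 with thinned counts and 0 under the replicate block. They became 3 to 12 when 1 library was left out: 22 of 46 libraries moved it by over 1.5 times, 20 of them, from all 3 groups, to 3 or 4, leaving out mouse 2045 (no month 4 sample) gave 12 and leaving out sham mouse 2015 gave 11. The depth settings and the fit without males bled at day 2 were chosen after seeing the data. The cause of these moves was not tested.

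No difference that passed a test changed sign, but 31 values between the follow-up groups, none of which had passed, did so in some setting. Under the replicate block, miR-676-5p was at 0.046, miR-96-5p at 0.96, miR-122-5p at 0.16, miR-18b-5p at -0.34 and miR-106a-5p at 0.16. With a block of sex by early bleed, miR-34b-3p was at -0.030, miR-96-5p at 0.016, miR-802-5p at -0.0081 and miR-34c-3p at -0.13. Without the males bled at day 2, miR-96-5p was at 0.057, miR-199b-5p at 0.24, miR-802-5p at -0.13, miR-20b-5p at -0.14 and miR-34c-3p at -0.054. With log2 total count as a covariate, miR-96-5p was at 0.044, miR-802-5p at -0.13, miR-20b-5p at -0.040 and miR-34c-3p at -0.0072, and with thinned counts miR-20b-5p was at -0.044. With the early bleed as covariate, miR-20b-5p was at -0.012 and miR-34c-3p at -0.025. miR-122-5p was at 0.0047 without a filter and at 0.027 with the stricter one. miR-106a-5p was at 0.0995 with limma-voom, 0.0060 with DESeq2, 0.0047 with its size factors, 0.11 with quantile-normalized RPM, 0.015 without a filter, 0.022 with the stricter one and 0.047 with only mice that have a month 3 sample, where miR-34c-3p was at -0.017. With 1 library left out, miR-106a-5p ran from -0.085 to 0.046, miR-122-5p from -0.15 to 0.14, miR-20b-5p from -0.025 to 0.12, miR-34c-3p from -0.049 to 0.082 and miR-802-5p from -0.057 to 0.26.

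Depth, sex and the early bleed are unevenly spread over 13 and 17 mice, and for 50 of 276 miRNA the interval reaches beyond a log2 fold change of 1. Whether a mouse without a month 4 sample had died was not analysed here.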

Other observations

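Some miRNA that lie together in the genome were on the same side between the follow-up groups at month 1. These were chosen after their values were seen and are values, with no test of the clusters. miR-99a-5p (chr16:77598940-77598961), let-7c-5p (chr16:77599672-77599693) and miR-125b-5p (chr16:77646279-77646300) lie in introns of 1 non-coding host gene, Mir99ahg, over 47361 bases. Their log2 fold changes, mice without minus mice with a month 4 sample, were -0.66, -0.38 and -0.58, while miR-125b-2-3p, the other arm of the same miR-125b hairpin, was at 0.35 (interval -0.13 to 0.83). let-7c-5p also has a gene on chromosome 15 and miR-125b-5p one on chromosome 9. The mature sequences are the same, so reads of these miRNA cannot be assigned to Mir99ahg.

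On chromosome 9, miR-100-5p and the second gene of miR-125b-5p lie within 50525 bases in introns of the non-coding host 3110039I08Rik. The let-7 members split: let-7c-5p was at -0.38 (interval -0.91 to 0.14) and let-7a-5p at 0.50 (interval -0.036 to 1.03), and neither passed the test.

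miR-22-3p, the abundant arm of the miR-22 hairpin, was at -0.21 (interval -0.45 to 0.032) beside -0.42 for miR-22-5p. The miR-17 to miR-92a relatives of the X-linked cluster, which were not called against sham mice, were also close to 0 between the follow-up groups, with miR-17-5p at 0.088 (interval -0.29 to 0.47), miR-18a-5p at 0.077 (interval -0.29 to 0.44) and miR-20a-5p at -0.15 (interval -0.47 to 0.18).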
